A study of Homo sapiens with 4 samples.

Results

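The genes described here build and load MHC class I molecules, and were measured in RKO cells, an established, poorly differentiated human colon carcinoma line. They are 9 of the 13092 genes listed in at least 1 of the 2 deposited RNA tables, taken by symbol: the heavy chains HLA-B, HLA-C, HLA-E and HLA-F, the light chain B2M, the peptide transporter genes TAP1 and TAP2, the loading chaperone gene TAPBP, and NLRC5. All 9 were listed in both tables and reached a mean of 1 RPKM (reads per kilobase, relative to all reads of the library), the level required of every gene in the comparisons. The study asked which genes respond to HADH-S, a form of the mitochondrial beta-oxidation enzyme hydroxyacyl-CoA dehydrogenase that the series title places in the nucleus. It sequenced RNA from 1 library of RKO cells with the genotype HADH-S overexpression and 1 library of control RKO cells with the genotype WT. The vector, the promoter and whether the overexpressing cells are a clone or a pool are not stated in the labels, and the libraries of chromatin precipitated with HADH-S and of its input were not analysed here. With 1 library per condition there was no test between conditions and no p-value, and "higher" and "lower" below describe these 2 libraries.

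A class I molecule is a heavy chain paired with beta-2-microglobulin, and it shows short peptides from inside the cell to CD8 T cells. TAP1 and TAP2 form the transporter that brings peptides into the endoplasmic reticulum, and tapasin, the product of TAPBP, holds the empty heavy chain beside the transporter while a peptide is chosen. NLRC5 is the transactivator of class I genes, and acts with factors bound to conserved promoter elements. Interferons raise the transcription of these genes in most cell types, and colon carcinomas with mismatch repair defects, a class that RKO belongs to, often lose parts of the pathway.

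Reads recovered from the tables numbered 6963608 in the overexpressing and 6773421 in the control library. A ratio of RPKM is given with its exact 95% interval for counting error. HADH, read first as a check of the labels, was higher in the overexpressing library (54.4 against 26.5 RPKM), as labelled. Among 9 epithelial and colon markers, KRT18 (93.8 against 91.7 RPKM), EPCAM (9.57 against 8.20 RPKM), CDX2 (4.37 against 3.60 RPKM) and KRT8 (2.81 against 2.54 RPKM) were listed, while CDH1, KRT20, VIL1, LGR5 and CEACAM5 were listed in neither table. Of 13 leukocyte markers 3 were listed, with summed levels of 707 RPKM in overexpressing and 646 RPKM in control cells. These were CD68 (478 against 389 RPKM), LCP1 (222 against 249 RPKM) and CORO1A (6.85 against 7.45 RPKM), and PTPRC, CD3E, CD14, CD74, HLA-DRA and CIITA were listed in neither table. Fibroblast markers summed to 0.0751 and 0.0553 RPKM, and of the endothelial markers EGFL7 alone was listed (58.6 against 48.6 RPKM). CD68 and EGFL7 differed in the same direction as the class I genes, and their part in the result was not tested. In such bulk libraries, fewer cells that express a gene and less RNA per cell cannot be told apart.

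RefSeq promoter windows of 300 bases (250 before and 50 after the gene start, GRCh38.p14) were available for 7 of the 9 members, and not for HLA-E and NLRC5. The element through which interferon-activated factors bind, the ISRE, holds GAAA, 2 bases of any kind, and GAAA again. Both strands were searched for it, and matches of 1 motif may overlap. This exact pattern was present in the windows of 5 members, B2M, TAP1, TAP2, TAPBP and HLA-F. It was in 3.57% of all 35116 windows in the table and 3.85% of the 8423 genes with a window and a mean of at least 1 RPKM. The stretches that hold it are shown because they are what these 5 members have in common in sequence. Capitals mark the paired GAAA boxes, written TTTC where they lie on the other strand.
B2M: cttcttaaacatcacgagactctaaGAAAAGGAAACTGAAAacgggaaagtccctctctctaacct
TAP1: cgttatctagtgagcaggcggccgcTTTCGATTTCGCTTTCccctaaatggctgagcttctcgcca
TAP2: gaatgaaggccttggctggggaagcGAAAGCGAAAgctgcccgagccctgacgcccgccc
TAPBP: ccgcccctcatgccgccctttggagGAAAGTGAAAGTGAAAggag
HLA-F: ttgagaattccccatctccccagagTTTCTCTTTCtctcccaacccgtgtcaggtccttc
They lie at chr15:44711348-44711413 (plus strand) for B2M, chr6:32853798-32853863 (minus strand) for TAP1, chr6:32838763-32838822 (minus strand) for TAP2, chr6:33314079-33314123 (minus strand) for TAPBP and chr6:29723253-29723312 (plus strand) for HLA-F. B2M, TAP1 and TAPBP each held 2 overlapping pairs, that is 3 GAAA boxes in a row. Counted from the gene start, the first base of the first pair was at -144 in B2M, -134 in TAP1, -58 in TAP2, -20 in TAPBP and -156 in HLA-F. TAP1 has 2 windows in the table, and the second held none of the motifs searched.

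HLA-B and HLA-C had no exact pair of this kind, and their closest stretch differed from it at 2 of the 8 fixed bases. Whether these windows hold an ISRE that departs from the exact letters was not tested. The windows of HLA-B and HLA-C were alike over 269 of 304 aligned columns (88.5%). Both are shown because they hold other elements by which class I promoters are known, a TGACG site and CCAAT boxes (ATTGG on the other strand), which are in capitals.
HLA-B: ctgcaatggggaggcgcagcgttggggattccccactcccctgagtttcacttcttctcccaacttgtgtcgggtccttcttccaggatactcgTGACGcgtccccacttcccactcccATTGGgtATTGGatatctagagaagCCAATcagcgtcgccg
HLA-C: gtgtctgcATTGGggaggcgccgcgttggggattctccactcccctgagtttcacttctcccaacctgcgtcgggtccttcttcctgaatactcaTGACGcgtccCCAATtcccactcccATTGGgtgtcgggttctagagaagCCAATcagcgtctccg
They lie at chr6:31357220-31357379 (minus strand) for HLA-B and chr6:31272133-31272292 (minus strand) for HLA-C. TGACG was found on either strand in 4 of the 7 members' windows (B2M, HLA-B, HLA-C and TAP2), in 24.6% of all windows and in 41.9% of the measured genes with a window. CCAAT was found in 5 (B2M, HLA-B, HLA-C, HLA-F and TAP1), in 34.6% of all windows and in 44.0% of those measured genes. A kB site, the motif of NF-kB, was found in 5 (B2M, HLA-B, HLA-C, TAP1 and TAPBP), in 11.3% of all windows and in 17.2% of those measured genes. These matches are letters in a window and were not tied to binding in these cells.

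**Figure D1:**
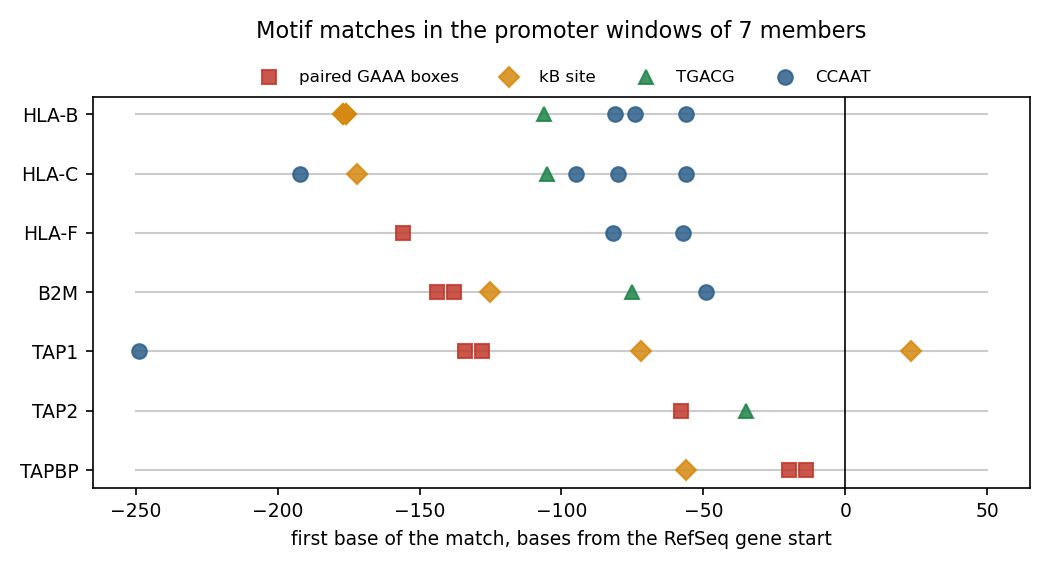
Position of motif matches in the promoter windows of 7 members; the horizontal axis is the first base of each match in bases from the RefSeq gene start (vertical line), each row is a gene, and symbols mark paired GAAA boxes, kB sites, TGACG and CCAAT on either strand. Exact pairs of GAAA boxes appear in 5 of the 7 rows, from -156 in HLA-F to -14 in TAPBP, and are missing from HLA-B and HLA-C.

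All 9 members were higher with HADH-S, by factors from 1.06 for B2M to 1.48 for HLA-B. Their log2 values, the log2 quotient of RPKM + 1 in overexpressing over RPKM + 1 in control cells, had a median of 0.28, against 0.01 over the 10331 genes with a mean of at least 1 RPKM, 52.2% of which had a value above 0. A difference of at least 1.2-fold on this scale was seen in 7 of the 9 members and in 11.5% of all genes. Values of TAP1, HLA-C and NLRC5 lay at that limit, and after rescaling to equal RPKM totals 4 members were past it (HLA-B, HLA-E, TAP2 and TAPBP). None reached 1.5-fold, which 1.47% of all genes did, or 2-fold, which 0.3% did. The counting interval lay above 1 for 7 members and 13.8% of genes, and below 1 for 0 members and 11.6% of genes.

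Among the heavy chains, HLA-C was by far the best expressed member. This classical chain, which presents peptides to T cells and is a ligand of natural killer cell receptors, was at 302 RPKM in overexpressing cells (3270 reads) and 249 RPKM in control cells (2616 reads). This gave a ratio of 1.22 (interval 1.15 to 1.28) and a log2 value of 0.28. HLA-C (ENSG00000204525) lies on chromosome 6 from 31268749 to 31272092 in GRCh38.p14.

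HLA-B, the other classical chain among the members, was at 26.0 RPKM in overexpressing cells (278 reads) and 17.6 RPKM in control cells (183 reads). Its ratio of 1.48 (interval 1.22 to 1.79) and log2 value of 0.54 were the largest of the 9, and 1.93% of all genes had a log2 value at least as high. The level of HLA-C was 11.6 times that of HLA-B with HADH-S and 14.1 times that in the control. HLA-B (ENSG00000234745, chromosome 6 from 31353875 to 31357179) and HLA-C are near-identical and highly polymorphic. Reads of the alleles that RKO carries can be split between them or lost, and how the authors assigned such reads is not stated in the labels or files.

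HLA-E, a chain of low polymorphism that presents leader peptides of other class I chains to NKG2A on natural killer cells, was at 48.3 RPKM in overexpressing cells (857 reads) and 36.6 RPKM in control cells (631 reads). This gave a ratio of 1.32 (interval 1.19 to 1.47), and 5.04% of all genes had a log2 value at least as high as its 0.39. HLA-E (ENSG00000204592) lies on chromosome 6 from 30489509 to 30494194. HLA-F, a nonclassical chain that can reach the surface without peptide, was at 15.0 RPKM against 13.1 RPKM, from 155 and 131 reads. Its ratio of 1.15 had an interval of 0.906 to 1.46, so a difference was not detectable at this depth. HLA-F (ENSG00000204642, chromosome 6 from 29723434 to 29738532) overlaps the antisense RNA gene HLA-F-AS1, and without a stated strand setting their reads cannot be told apart.

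B2M, the light chain shared by all these molecules, had the highest level of the members and the smallest difference. It was at 324 RPKM in overexpressing cells (3777 reads) and 304 RPKM in control cells (3453 reads). This gave a ratio of 1.06 (interval 1.02 to 1.11), and 33.8% of all genes had a log2 value at least as high as its 0.09. B2M (ENSG00000166710) lies on chromosome 15 from 44711517 to 44718145, apart from the MHC.

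The transporter genes had values close to each other. TAP1 was at 30.5 RPKM in overexpressing cells (629 reads) and 25.1 RPKM in control cells (503 reads) (ratio 1.22, interval 1.08 to 1.37, log2 value 0.27). TAP2 was at 28.6 RPKM against 23.0 RPKM, from 1130 and 883 reads (ratio 1.24, interval 1.14 to 1.36, log2 value 0.30). The TAP1 level was 1.07 times that of TAP2 with HADH-S and 1.09 times in the control, and the change in this quotient, a factor of 0.977, had an interval of 0.842 to 1.13. TAP1 (ENSG00000168394) lies on chromosome 6 from 32845209 to 32853704 and TAP2 (ENSG00000204267) from 32821831 to 32838739. The start of TAP1 is 488 bases from that of PSMB9, an immunoproteasome subunit gene on the other strand, and TAP1 overlaps the antisense RNA gene PSMB8-AS1.

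TAPBP, which encodes tapasin, was at 12.3 RPKM in overexpressing cells (162 reads) and 9.38 RPKM in control cells (120 reads). This gave a ratio of 1.31 (interval 1.03 to 1.68) and a log2 value of 0.36. TAPBP (ENSG00000231925, chromosome 6 from 33299694 to 33314078) overlaps the protein-coding gene RGL2. NLRC5, the transactivator, was the lowest member, at 2.36 RPKM in overexpressing cells (112 reads) and 1.80 RPKM in control cells (83 reads) over a transcript of 6822 nt. Its ratio of 1.31 was as large as that of TAPBP, but the interval of 0.979 to 1.77 included 1. NLRC5 (ENSG00000140853) lies on chromosome 16 from 56989557 to 57083520.

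**Figure D2:**
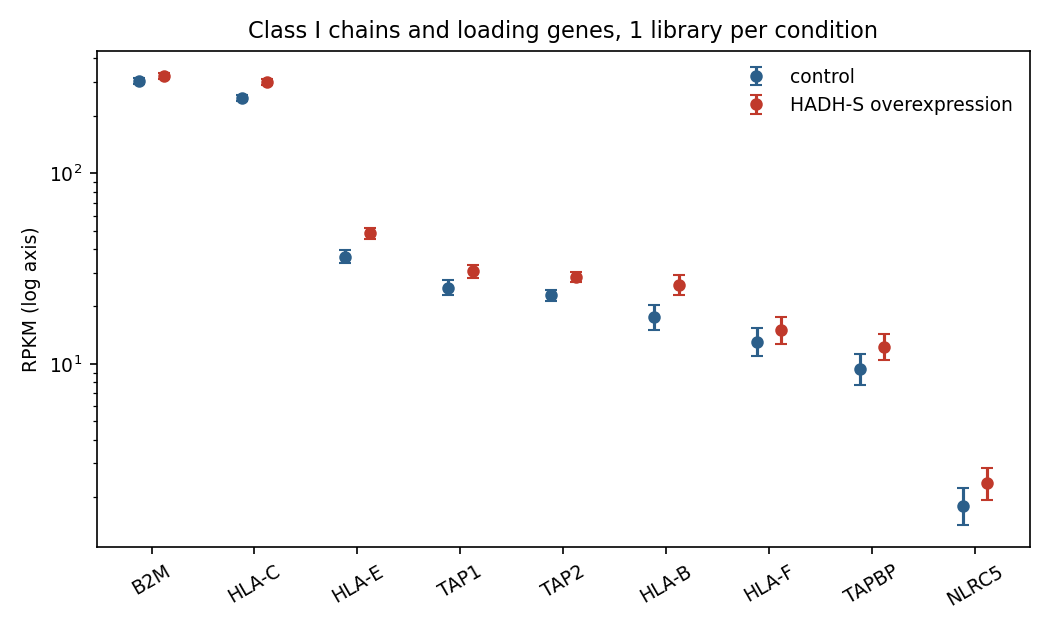
RPKM (log axis) of the 9 members in the control and HADH-S libraries, 1 library each, with exact 95% Poisson intervals of the recovered reads as bars. Each HADH-S point lies above its control point, and the levels run from about 300 RPKM for B2M and HLA-C (324 and 302 RPKM with HADH-S) to 2.36 and 1.80 RPKM for NLRC5.

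The order of the levels per kilobase was the same in both libraries: B2M, HLA-C, HLA-E, TAP1, TAP2, HLA-B, HLA-F, TAPBP and NLRC5. The counting intervals of TAP1 and TAP2 overlapped in both libraries, as did those of HLA-F and TAPBP. TAP2 and HLA-B overlapped with HADH-S, at 28.6 and 26.0 RPKM, but not in the control, at 23.0 and 17.6 RPKM. HLA-B and HLA-F overlapped in the control, at 17.6 and 13.1 RPKM, but not with HADH-S, at 26.0 and 15.0 RPKM.

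Within a library, the heavy chains were also read against B2M, a quotient that does not depend on the library total. HLA-C was at 93.3% of the B2M level with HADH-S and 81.7% in the control, a factor of 1.14 (interval 1.07 to 1.23). HLA-E was at 14.9% against 12.01% (factor 1.24, interval 1.11 to 1.39) and HLA-B at 8.03% against 5.78% (factor 1.39, interval 1.14 to 1.69). HLA-F was at 4.64% against 4.29%, with an interval of 0.848 to 1.38 around a factor of 1.08. Of the 36 pairs of members, the interval of the change in their quotient was clear of 1 in 5, and B2M was in each of the 5, with HLA-B, HLA-C, HLA-E, TAP1 or TAP2 as its partner. For the other pairs the counting error was too large to tell their ratios apart. These intervals were not adjusted for the number of pairs.

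The 4 heavy chains among the members summed to 391.5 RPKM in overexpressing and 315.7 RPKM in control cells (interval of the ratio of their reads 1.19 to 1.30). The interval of this total lay above that of B2M, 1.02 to 1.11. The shares of the sum in overexpressing and in control cells were 77.2% and 78.7% for HLA-C, 12.3% and 11.6% for HLA-E, 6.64% and 5.57% for HLA-B, and 3.84% and 4.14% for HLA-F.

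Since counting error is not the whole difference between 2 libraries, each member was set beside the genes with reads over both libraries within a factor of 2 of its own. HLA-B, HLA-C, HLA-E and TAP2 lay above the central 95% range of such genes, and the other 5 lay inside it. For HLA-B, at a log2 value of 0.54, the range over 4443 genes was -0.34 to 0.45. For HLA-C, at 0.28, it was -0.21 to 0.22 over 648 genes, for HLA-E, at 0.39, -0.28 to 0.30 over 3466 genes, and for TAP2, at 0.304, -0.267 to 0.290 over 2695 genes. TAP1, at 0.27, was inside its range of -0.29 to 0.34, and TAPBP, at 0.36, inside -0.37 to 0.52. Of the genes of like depth, 15.6% had a log2 value at least as high as B2M, 18.5% as NLRC5 and 23.2% as HLA-F.

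**Figure D3:**
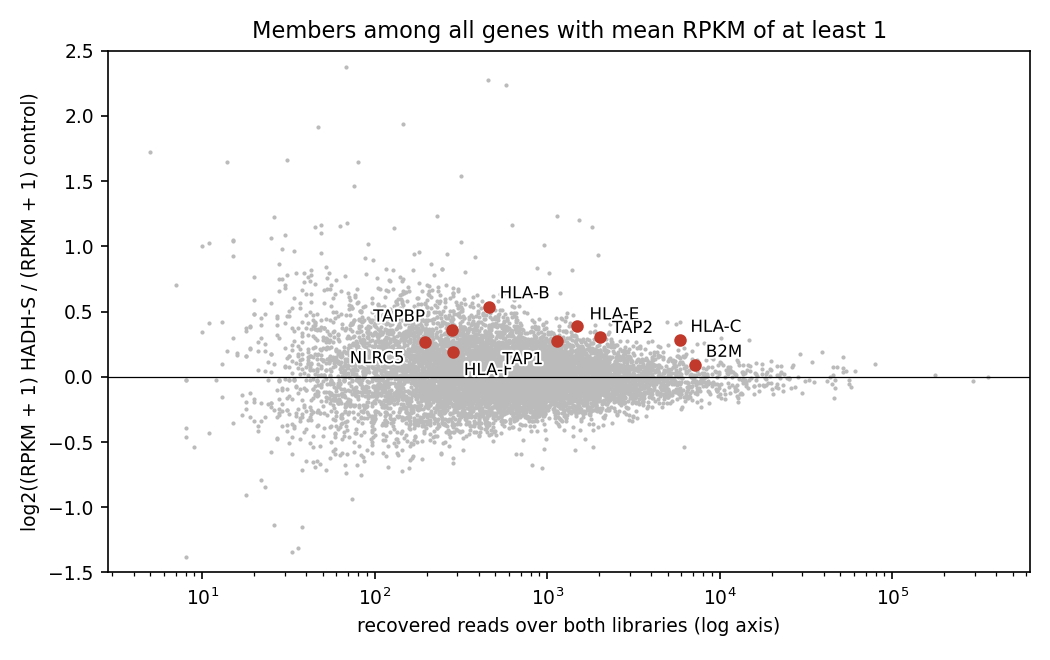
Log2 value of each gene with a mean of at least 1 RPKM (grey) against its recovered reads over both libraries (log axis), with the 9 members in red. All 9 lie above 0, and HLA-B, HLA-C, HLA-E and TAP2 lie at the upper edge of the genes of like depth.

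The wider class I pathway was described from 5 lists, with 57 genes measured at a mean of at least 1 RPKM. Of these, 34 had a positive log2 value, 5 were higher and 0 lower by at least 1.2-fold, and the median was 0.05. Counting intervals lay above 1 for 11 and below 1 for 4. Over all 10331 genes, 52.2% were positive, and 1193 (11.5%) were higher and 698 lower by at least 1.2-fold. The interval lay above 1 for 13.8% of them and below 1 for 11.6%. These shares are also the background for the counts of each list below. The median of the wider pathway was thus nearer to that of all genes, 0.01, than to that of the members.

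For peptide supply, 11 of 13 genes had a positive value (median 0.08), 3 had an interval above 1 and 1 below. The immunoproteasome subunit gene PSMB9 was at 23.9 RPKM in overexpressing and 16.5 RPKM in control cells (ratio 1.44, interval 1.13 to 1.85). Its interval overlapped that of its neighbour TAP1 (ratio 1.22, interval 1.08 to 1.37), and the difference between these ratios was not tested. PSMB10, a second inducible subunit, was at 22.0 against 17.2 RPKM (interval 0.997 to 1.65), and the cytosolic peptidase gene THOP1 at 29.8 against 26.1 RPKM (interval 1.04 to 1.26). PSMB8, the third inducible subunit, was at 31.3 against 28.2 RPKM (interval 0.919 to 1.34).

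Genes of peptide editing and folding in the endoplasmic reticulum differed little, with a median of -0.05, 4 of 11 positive, and none past 1.2-fold in either direction. The aminopeptidase gene ERAP2, which trims peptides for class I, was at 15.3 against 13.4 RPKM (ratio 1.15, interval 1.01 to 1.30). The chaperone gene CANX, whose product folds new heavy chains, was lower, at 290 against 317 RPKM (ratio 0.914, interval 0.889 to 0.939). LNPEP, a peptidase of cross-presentation, was at 7.83 against 8.74 RPKM (ratio 0.897, interval 0.806 to 0.998).

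Factors that transcribe class I genes had a median of -0.03, with 7 of 16 positive. RFXAP, of the RFX complex that NLRC5 works with, was at 5.11 against 3.65 RPKM, with an interval that began at 0.986 and included 1, while its partners on the list, RFX5 and RFXANK, picked here with their values known, stood at 0.965 and 1.09 times the control. IRF1, an interferon-induced factor that binds class I promoters, was at 3.03 against 2.37 RPKM (interval 0.895 to 1.84).

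Class I related surface molecules had a median of 0.10 over 8 measured genes, 5 of them positive. MICB, a ligand of the activating receptor NKG2D, was at 16.3 against 13.5 RPKM, and its ratio of 1.21 had an interval of 1.01 to 1.45. The NKG2D ligand gene ULBP3 was at 11.4 against 13.0 RPKM (interval 0.736 to 1.05). Genes of class I turnover had a median of 0.14, with 7 of 9 positive. SUSD6, whose product sends class I molecules to degradation, had 4.10 against 3.10 RPKM, with a ratio of 1.33 and an interval of 1.03 to 1.71. Its partners WWP2 (ratio 1.16, interval 0.987 to 1.36) and TMEM127 (ratio 1.12, interval 0.966 to 1.30) had intervals that included 1.

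Position was compared as well, since 7 of the members lie in the MHC on chromosome 6. From the start of HLA-F to the end of TAPBP, 66 other genes were measured, with a median log2 value of 0.09 against 0.28 for the members. Of these 66, 41 were positive, 6 were higher and 4 lower by at least 1.2-fold, and 16 had an interval above 1 and 3 below. Over all genes, 52.2% were positive and 11.5% were higher by at least 1.2-fold. The interval lay above 1 for 13.8% of all genes and below 1 for 11.6%. RPP21, a subunit gene of ribonuclease P, had 5.80 against 2.49 RPKM from 24 and 10 reads (ratio 2.33, interval 1.08 to 5.47). CCHCR1 was at 5.97 against 3.99 RPKM (interval 1.12 to 2.01).

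The list of interferon-stimulated genes outside class I was chosen with earlier results of these data known, so its counts only describe the listed genes. Their median difference was larger than that of the members. All 28 measured genes of that list were positive, with a median of 0.84. Of these, 24 reached 1.5-fold, a size that no class I member reached. Over all genes, 52.2% were positive and 1.47% reached 1.5-fold. OAS1, IFI44, MX2, OAS2, RSAD2 and IFIT2 were below 1 RPKM in the control. They passed the filter on the mean only through the HADH-S library, so the filter fixed the sign of their values. The counts and the median above include them and were not computed without them. The largest values of the list were those of OAS1, IFI6 and IFIT1, genes of the antiviral response. OAS1, which passed the filter in that way, was at 5.54 against 0.263 RPKM, from 65 and 3 reads. IFI6 (66.4 against 12.9 RPKM) and IFIT1 (16.7 against 2.75 RPKM) were above 1 RPKM in both libraries. The ratio of OAS1 had a counting interval of 6.90 to 105. Within the list the values began at 0.14 for IFITM2, so its lower end overlapped the range of the members, 0.09 to 0.54. Paired GAAA boxes were in the windows of 18 of the 25 interferon genes that have one, and in 5 of 7 members. They were in 3.57% of all windows and in 3.85% of the measured genes with a window.

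**Figure D4:**
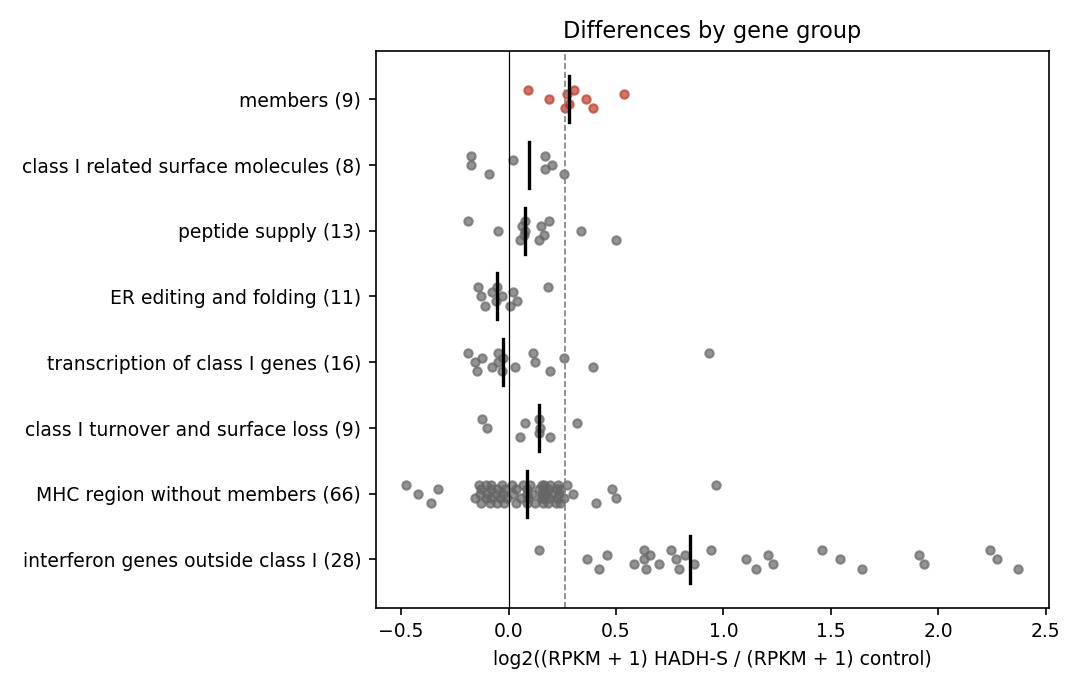
Log2 values of genes with a mean of at least 1 RPKM by group, with the number of genes in brackets; points are genes, black bars medians, the solid line 0 and the dashed line 1.2-fold. The median of the members (red, 0.28) lies above that of each wider pathway list and of the MHC region (0.09), and below that of the interferon genes (0.84). Single genes of the groups overlap.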

How the data were processed

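RNA of 2 libraries was used, 1 per group. The authors deposited 1 RPKM value per gene and library, per the file headers; each row label carries a transcript and its length. Per the submitters' processing notes, shared by all samples, fastp 0.23.2, SAMtools 1.9 and GRCh38 were named; aligner, counter and strand setting for RNA: not given in the sources used here. RPKM multiplied by length was a whole multiple of 1 step per library for 100% of values within 0.01 reads, which gave the reads. Genes without a read are unlisted and were set to 0. The design has no test, so differences are log2 ratios with a pseudocount of 1 among genes whose mean RPKM reached 1. Ratios carry exact conditional (Clopper-Pearson) 95% intervals for counting error only, since reads are not independent molecules. Quotients between genes used conditional odds ratios (SciPy 1.17.1). The steps were tested on simulated data. Sequences and places are from RefSeq (GRCh38.p14). Members and lists were chosen with earlier results of these data known. Named genes were all members, HADH and the 3 largest absolute log2 values of each list and of the MHC region; others are named as list members or by position, and some genes that the rule names are not reported here. Alternatives were other pseudocounts, scalings, filters, folds, and removal of a length trend.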

Additional observations from a re-analysis of the deposited data

How the results depend on the processing

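All 9 members stayed above 0 under the 7 other pseudocounts, scalings and the length correction, the lowest value being 0.05 for B2M without the length trend. Each of these 63 values stayed within the counting error of the value reported. The members' median lay between 0.26 and 0.31, and that of the wider pathway list between 0.03 and 0.06. The count of members past 1.2-fold, 7 as reported, was 4 with equal RPKM totals, and 0 at a fold of 1.5 and at a fold of 2. Over all genes, the counts of 1193 higher and 698 lower became 550 and 182 with a pseudocount of 5, 725 and 396 where a mean RPKM of 5 was required, 152 and 45 at a fold of 1.5, and 31 and 5 at a fold of 2, and 1201 were lower by the counting interval. A larger pseudocount shrinks low genes, and the stricter filter tests fewer, by construction. No paired analysis was possible because each condition has 1 library, and for the same reason no replicate could be left out. Depth limits HLA-F, NLRC5 and TAPBP most, whose ratios rest on 83 to 162 reads per library.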
